A study of Bos taurus with 8 samples.

Results

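Dual-specificity phosphatases (DUSPs) that act on mitogen-activated protein kinases (MAPKs) were described here in cow blood kept with or without a plant extract. The genes are DUSP1, DUSP2, DUSP4, DUSP5, DUSP6, DUSP7, DUSP10, DUSP14 and DUSP16, taken by their gene symbol in the deposited averages table. They are 9 of the 16966 genes named there and are read by 17 of the 43653 probes of the array, with 1 to 3 probes per gene, each kept apart. The genes were chosen with their values on these arrays already known, so their levels and differences between the groups are a description and carry no test. The RefSeq accession given with the probe led to the same gene symbol in the reference annotation for 12 of the 17 probes, which cover 6 genes; the other probes keep the name of the array design.

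The arrays were hybridised with Cy3-labelled RNA from peripheral blood of female Holstein Friesian cows (n = 5). The group called CPE is blood that received 10 µg/ml of a phenolic extract of cowpea leaf, and the group called CONTROL is blood that received none. Both were held at 37 °C in 5% CO2 for 30 min. All animals, controls included, had come to the end of a 60-day period on the probiotic FastTrack Microbial. Each group has 4 arrays, and the series text says that the RNA was pooled within a group, so the spread within a group can be technical and does not measure how cows vary. Each group also lies on a slide of its own, scanned in a session of its own, so slide and treatment cannot be told apart.

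MAPK phosphatases remove phosphate from both the threonine and the tyrosine of the activation loop of a MAP kinase and so switch it off. Many of them are immediate-early or delayed-early genes that MAPK signalling itself induces, which makes them a negative feedback arm of the pathway. DUSP1, DUSP2, DUSP4 and DUSP5 are nuclear and inducible, DUSP6 and DUSP7 are cytoplasmic and prefer ERK, DUSP10 and DUSP16 prefer JNK and p38, and DUSP14 is a small atypical member that lacks the kinase-binding domain. In leukocytes DUSP1 is known as a brake on p38 and JNK signalling and cytokine output, and DUSP2 was first described as an inducible gene of activated lymphocytes.

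The array reads each gene through oligonucleotides of 60 bases, and the sequence of the probe sets which stretch of a transcript was seen. The probes on which the levels rest are shown first, in lower case, 30 bases each unless whole, together with probes of the same genes that gave little signal. In DUSP1 the bright probe has a stop codon in each of its 3 frames, and capitals mark the first stop of those frames that have it in the stretch shown. In the whole probes of DUSP1 and DUSP16 capitals mark GTGCACT, letters that can spell the valine, histidine and start of the cysteine codon of the catalytic signature of this family. They mark AATAAA, the letters of the polyadenylation signal, in DUSP14, and a run of the dinucleotide CA in 1 DUSP7 probe.
DUSP1 A_73_108770, bases 1 to 30: tgtcctgTAAatatatccTAAgcaggtttg
DUSP1 A_73_P280851, bases 1 to 30: tcttgtccctgtttcctgaagacacttttc
DUSP1 A_73_P107251, whole: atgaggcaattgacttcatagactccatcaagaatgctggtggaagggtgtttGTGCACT
DUSP2 A_73_P081986, bases 1 to 30: acttcagtttcatggggcagctgctgcagt
DUSP4 A_73_P059766, whole: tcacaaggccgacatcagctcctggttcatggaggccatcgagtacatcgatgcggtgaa
DUSP6 A_73_P045446, bases 1 to 30: tcaattttgcatatagaggagccaaagaga
DUSP7 A_73_106837, bases 1 to 30: agaaaaacgcatcagatttgtgtacatgag
DUSP7 A_73_P447451, bases 4 to 33: CACACACACACACACACAtatatatatata
DUSP14 A_73_P040841, bases 26 to 55: agtatattagcattatttttAATAAAtaca
DUSP16 A_73_118238, whole: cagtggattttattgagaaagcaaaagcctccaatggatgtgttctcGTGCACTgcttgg

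Over the 43653 probes, read on the strand of the probe, AATAAA stood in 9.35%, GTGCACT in 0.286% and a dinucleotide run of 18 bases or more in 0.0252%. On either strand the shares were 12.5% for AATAAA and 0.483% for GTGCACT. A match is a description of the probe and not a site. An open reading frame over the whole probe was found in 15 of the 17 DUSP probes, against 85.6% of all probes. The GC content of the DUSP probes lay between 35% and 55% with a median of 45%, which is also the median of all probes. Probes of different DUSP genes shared no run longer than 8 bases, so none of these probes contains a long stretch of another. Of probes with and without an open frame some were bright: 5 of the 15 probes with an open frame and 1 of the 2 with a stop in each frame were well above background on all 8 arrays.

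Large areas of these arrays were dim, and where a spot lies bears on its reading. A spot was called lit on an array when its surroundings were bright, meaning that the 90th percentile of log2 raw signal over its 61 nearest spots lay less than 1.5 log2 units under the array's own 90th percentile of such local values. By this rule 31.7% to 50.1% of the 43803 spots were lit on an array, and 29.5% on all 8. The scanner software called 57.4% to 69.2% of lit spots well above background and 11.9% to 35.7% of the others. The 75th percentile of processed signal, the usual scaling value, ranged from 53.4 to 279.8 over the arrays, and no spot was saturated.

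The DUSP probes followed the same split. Of their 136 readings, 17 probes on 8 arrays, 69 were lit, and 68.1% of these were well above background, against 31.3% of the 67 that were not lit. On all 8 arrays 6 probes of 5 genes were well above background: DUSP1 A_73_108770, DUSP2 A_73_P081986, DUSP6 A_73_P045446, both DUSP7 probes and DUSP14 A_73_P040841. Also 6 probes of 5 genes were lit on all 8 arrays: DUSP1 A_73_108770, both DUSP4 probes, DUSP7 A_73_106837, DUSP14 A_73_P040841 and DUSP16 A_73_P091336. Both conditions held for 3 probes, those of DUSP1, DUSP7 and DUSP14. Lit on no array were 3 probes, namely DUSP6 A_73_P389491, DUSP7 A_73_P447451 and DUSP10 A_73_117815, and the other 8 were lit on 1 to 7 arrays.

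**Figure D1:**
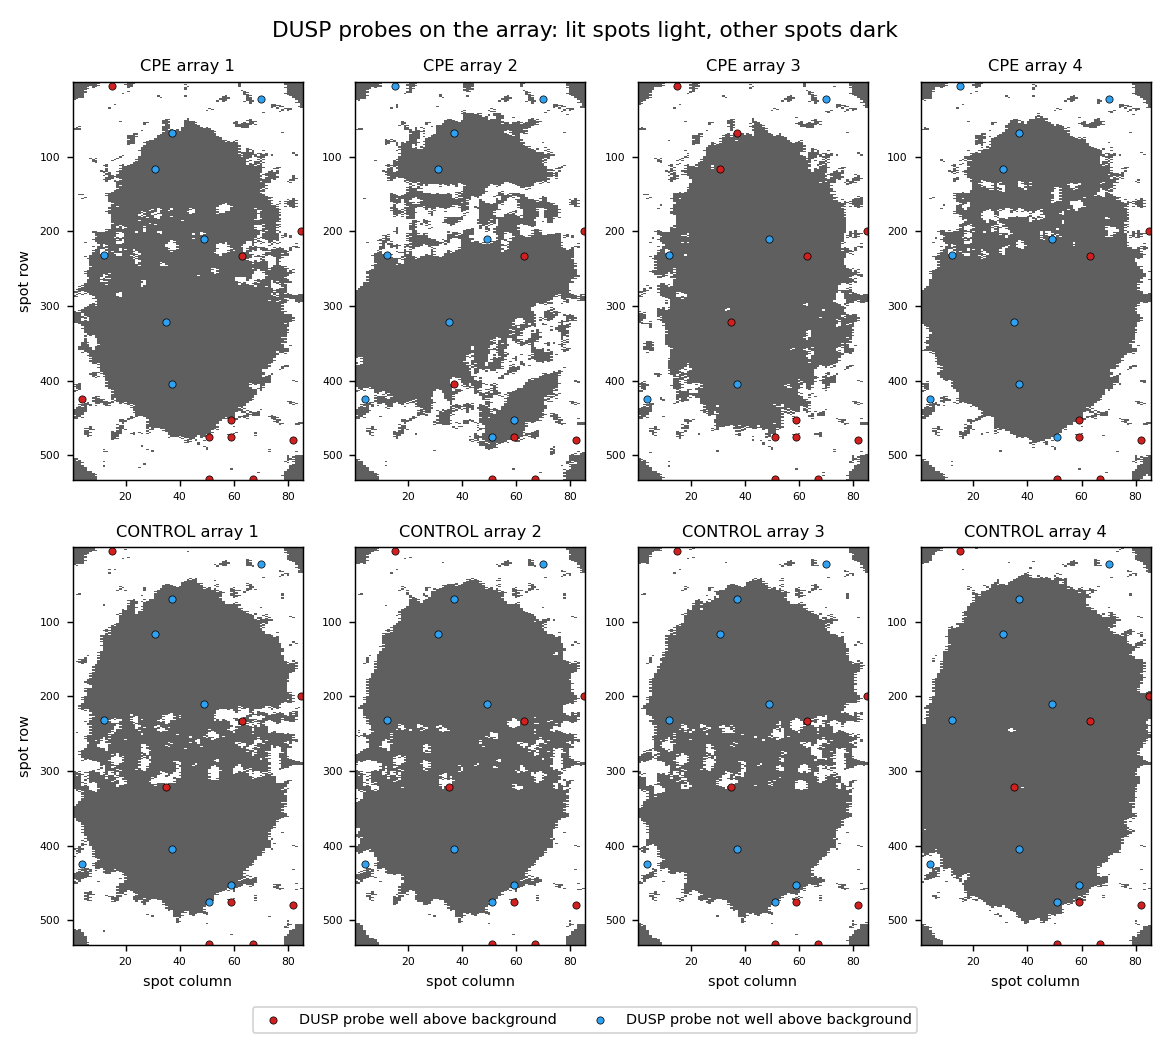
Position of the 17 DUSP probes on each of the 8 arrays, by spot column and spot row, over spots that were lit (light) or not (dark); red points are DUSP probes well above background on that array and blue points those that were not. The dark areas differ from array to array, and 3 of the 17 probes lie in them on all 8 arrays.

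**Figure D2:**
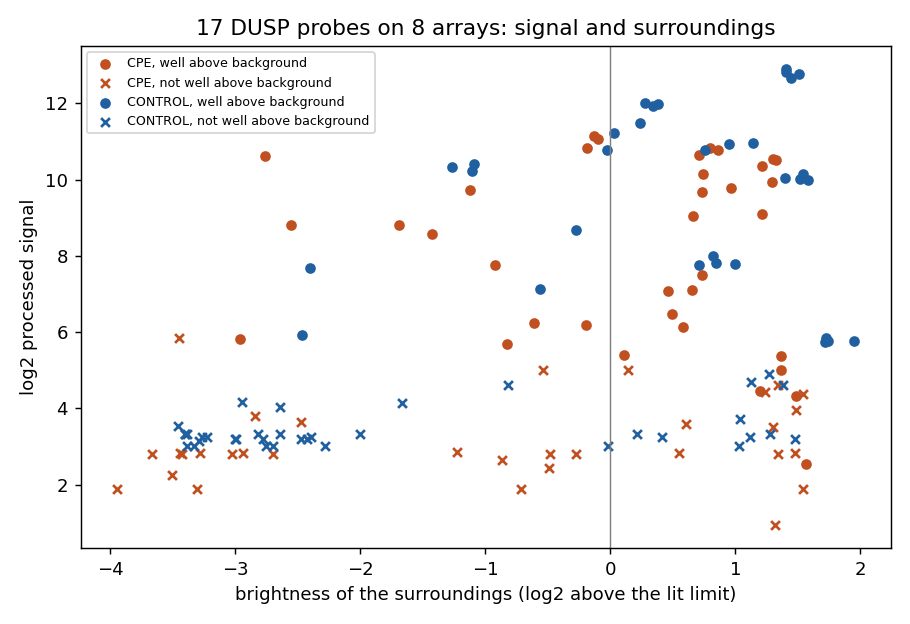
Log2 processed signal of the 17 DUSP probes on the 8 arrays against the brightness of their surroundings, in log2 units above the limit for lit; each point is 1 probe on 1 array, coloured by group, with dots for readings well above background and crosses for the others. Well above background were 47 of the 69 readings right of the limit and 21 of the 67 left of it.

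Levels are given below as processed signal, the background-subtracted intensity of the spot with no scaling between arrays, and then on a log2 scale. The lit-area scale subtracts each array's 75th percentile over the probes lit on all 8 arrays, and the whole-array scale that over all probes. A difference is CPE minus CONTROL in log2 units with the standard error (SE) of the limma fit over all probes tested, and a probe was tested when either group had it well above background on each of its arrays. The whole-array difference of a probe measured on all 8 arrays is 1.12 lower than its lit-area difference by construction, because the scaling values of the arrays differ by that much between the groups. Over all probes tested the median difference was 0.028 in the lit area and -0.81 on the whole array. A whole-array value under 0 is therefore not by itself a fall beside other probes. Levels of different probes depend on the probe, so no gene is set above another by its signal.

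In the lit area 4 DUSP probes of 4 genes were tested, and 3 of them, for DUSP1, DUSP4 and DUSP14, lay past the threshold (Benjamini-Hochberg adjusted p of 0.05 in limma), all lower in CPE. Of the 8000 lit probes tested, 24.1% lay past it lower in CPE, 24% higher and 48.2% in either direction. Over the whole array 8 DUSP probes of 6 genes were tested, and 6 lay past the threshold, all lower in CPE, against 21.6% of 14932 probes lower and 38.9% in either direction. That background itself moves: without CONTROL array 2, 1555 of 15010 probes were past the threshold lower in CPE, in place of 3224 of 14932. Groups that did not overlap were seen for the same 3 probes in the lit area, against 26.2% of probes lower in CPE and 50.6% in either direction, and for the same 6 over the whole array, against 30.8% and 46.1%. Put on the lit-area scale, 3 of those 8 probes kept groups apart, against 15.9% of the 14932 probes lower in CPE. These are the values by which the genes were chosen, and nothing is read from the counts. DUSP4 A_73_P059766 and DUSP1 A_73_P280851 were tested only because each CONTROL array had them well above background, so they had to differ to some degree.

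DUSP1, a nuclear phosphatase of p38, JNK and ERK, was the member with the largest lit-area difference. Its probe A_73_108770 read 1815, 1616, 1143 and 1741 on the 4 CPE arrays and 7688, 7249, 6931 and 6515 on the 4 CONTROL arrays. The CPE arrays were all low and the CONTROL arrays all high, with a wide gap between them. On the lit-area scale the CPE level was 1.33 ± 0.13 and the CONTROL level 3.35 ± 0.094 (SD, n = 4 each), a difference of -2.01 (SE 0.093), or 4.04-fold lower in CPE. Only 92 of the 8000 lit probes tested, 1.15%, had a lower difference. The 69 probes well above background among its 120 nearest spots had a median unscaled difference of -0.38, and none of them was lower than DUSP1, which stood 1.81 log2 units under that median. With the whole array as the scale the difference was -3.14 (SE 0.49).

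The other DUSP1 probes lay mostly in dim areas. A_73_P280851 read 3.72, 13.9, 379 and 6.95 on the CPE arrays and 205, 2409, 2866 and 139.6 on the CONTROL arrays. It was lit only on CONTROL arrays 2 and 3, its highest readings, and the CPE array at 379 lies above 2 of the CONTROL arrays. The whole-array difference of -6.06 (SE 1.25) therefore sets 4 spots that were not lit against 2 that were and 2 that were not. On the lit-area scale the difference was -4.94 and the groups overlapped, and against its 6 neighbouring probes it was -4.23. The third probe, A_73_P107251, was lit and well above background on CPE array 3 only, at 89.6, and read between 6.24 and 10.1 on the other 7 arrays, so it holds no comparison.

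DUSP2, an inducible nuclear phosphatase of blood cells, had 1 probe, well above background on all 8 arrays. It read 875, 986, 531 and 819.6 in CPE and 2005, 1960.4, 1742 and 409.7 in CONTROL. The first 3 CONTROL arrays were above every CPE array, and CONTROL array 4 was below them all. That last spot was the only one of the 8 not lit, at -0.28 log2 units from the limit. On the lit-area scale with all arrays the CPE level was 0.34 ± 0.14 and the CONTROL level 0.90 ± 0.94 (SD, n = 4 each), a difference of -0.55 with overlapping groups. Over the 7 lit arrays the CONTROL level was 1.36 ± 0.077 (SD, n = 3) and the difference -1.02, or 2.03-fold lower in CPE, without overlap. Against its 43 neighbouring probes, over all arrays, the difference was -1.30, with 9.30% of them lower than DUSP2. The whole-array difference was -1.67 (SE 0.49), past the threshold, and it stayed lower but no longer past it without scaling between arrays (-0.73) or with scaling to bright probes (-0.78), and likewise without CONTROL array 2 or 3 (-1.53 and -1.61). With no filter on dim probes it kept its value but was not past the threshold.

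DUSP4, a nuclear phosphatase of ERK and JNK, gave a weak signal in bright surroundings. Its probe A_73_P059766 read 19.97, 15.6, 5.87 and 21.0 in CPE and 57.7, 54.3, 53.7 and 54.7 in CONTROL, lit on all 8 arrays. Every CONTROL array lay above every CPE array, and 2 of the 4 CPE arrays were not well above background. The lit-area difference was -1.80 (SE 0.21), from a CPE level of -5.46 ± 0.46 and a CONTROL level of -3.66 ± 0.16 (SD, n = 4 each). With CPE arrays not well above background no fold is given. The difference depends on how background is treated: with the normexp correction it was -0.15 and not past the threshold. Against its 75 neighbouring probes it was -1.32. The other DUSP4 probe, A_73_109942, was also lit on all 8 arrays but well above background on none. It read 1.91 to 7.10 in CPE and 8.03 to 10.1 in CONTROL. Apart from CPE array 3, at 1.91, these are the levels of the lowest spots, which other DUSP probes share to the digit. Its lit-area difference of -0.91 is thus a gap between the lowest levels of the arrays. It is no reading of DUSP4 and adds nothing to the first probe.

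DUSP5, the nuclear phosphatase of ERK, was not measured well. Its probe was well above background on no array and lit on CPE array 2 only. Its readings were 3.72, 7.10, 57.3 and 6.95 in CPE and 9.48, 10.1, 8.03 and 9.15 in CONTROL. On 7 of these arrays that is the level of the lowest spots, which several DUSP probes share to the digit.

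DUSP6, the cytoplasmic phosphatase of ERK, had 1 bright probe, A_73_P045446, well above background on all 8 arrays. It read 2282, 855, 1827 and 2148 in CPE and 4115, 4027, 3887 and 1767 in CONTROL. The first 3 CONTROL arrays lay above every CPE array, and CONTROL array 4 lay among the CPE arrays. The spot was lit on exactly those 3 CONTROL arrays. On the others the surroundings lay under the limit, at -0.024 log2 units from it on CONTROL array 4, -0.19 to -0.10 on 3 CPE arrays and -1.12 on CPE array 2, its lowest reading. The lit-area scale gave a CPE level of 1.43 ± 0.80 and a CONTROL level of 2.23 ± 0.42 (SD, n = 4 each), a difference of -0.80 with overlap. With the limit at 2 log2 units 3 CPE and 4 CONTROL arrays counted as lit, and the difference was -0.42 with overlap. Against its 47 neighbouring probes, over all arrays, the difference was -1.05, with 2.13% of them lower than DUSP6. The whole-array difference of -1.92 (SE 0.50) was past the threshold, and without scaling between arrays it was -0.97 and not past it. The 2 further DUSP6 probes read 5.45 to 32.4 (A_73_P227087, well above background on no array) and 4.79 to 219 (A_73_P389491, well above background on CPE array 3 only).

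DUSP7 is the close relative of DUSP6 that also acts on ERK. Its probe A_73_106837, lit and well above background on all 8 arrays, read 1472, 1504, 549.6 and 1318 in CPE and 1036, 1128, 1053 and 1021 in CONTROL. In these unscaled readings the CPE arrays lay above the CONTROL arrays except CPE array 3, which was the lowest of all. On the lit-area scale CPE array 3 (0.455) lay above CONTROL array 1 (0.436). The CPE level on the lit-area scale was 0.87 ± 0.29 and the CONTROL level 0.61 ± 0.16 (SD, n = 4 each), a difference of 0.26 (SE 0.15) that was not past the threshold, and 66.9% of the lit probes tested had a lower difference. It was past the threshold without CPE array 3 (0.40) and with local centring (0.39). On the whole-array scale it was -0.86 (SE 0.57), not past the threshold, and it was 0.088 without scaling between arrays and 0.033 with scaling to bright probes. Such a change of scaling moves the difference of every probe measured on all 8 arrays by the same amount, so the sign of the whole-array value is set by the scale. In the lit area the difference was above 0 under every alternative run, from 0.088 to 0.40.

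The second DUSP7 probe, A_73_P447451, carries the CA run shown above. It was well above background on all 8 arrays although it was lit on none, with surroundings at -2.97 to -1.09 log2 units from the limit. Its readings were 448, 56.8, 1567 and 447 in CPE and 1278, 1201, 1351 and 60.5 in CONTROL. Each group thus held 1 array far below its others, and the groups overlapped. The CONTROL array at 1278 carried an outlier mark from the scanner software and was left out, which gave a whole-array difference of -1.46 (SE 1.08, n = 4 and 3), not past the threshold.

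DUSP10, which prefers p38 and JNK, had 2 probes and was well above background in no CONTROL array. A_73_117815 read 75.3, 7.10, 73.6 and 52.0 in CPE and 17.8, 10.1, 8.03 and 9.15 in CONTROL. The 3 CPE arrays above 50 were those well above background, but the spot was lit on no array, and its surroundings were brighter on these CPE arrays (-0.82 to -0.20 log2 units from the limit) than on the CONTROL arrays (-2.78 to -1.67). A_73_P269226 read 32.0, 7.29, 41.7 and 24.5 in CPE and 9.48, 10.1, 8.03 and 9.15 in CONTROL. It was lit on the 3 brighter CPE arrays and on CONTROL arrays 1 and 2. The lowest level well above background on the CONTROL arrays lies above the mean level of either probe in CPE, so no bound on a fold is given. Whether DUSP10 differed between the groups could not be read from these arrays.

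DUSP14 had 1 named probe, lit and well above background on all 8 arrays. It read 180.4, 137, 70.0 and 138 in CPE and 257, 224, 218 and 220.2 in CONTROL. All CONTROL arrays lay above all CPE arrays, with CPE array 3 the lowest. The CPE level was -2.31 ± 0.19 and the CONTROL level -1.60 ± 0.15 (SD, n = 4 each), a lit-area difference of -0.71 (SE 0.12), or 1.63-fold lower. Of the 8000 lit probes 11.5% were lower. The normexp correction gave -0.27, not past the threshold, and against its 77 neighbouring probes the difference was -0.38, with 27.3% of them lower than DUSP14. The whole-array difference was -1.83 (SE 0.54), past the threshold, but not past it without scaling between arrays (-0.88), with no filter on dim probes, or without CPE array 2 or CONTROL array 4 (-1.83 and -1.53). A further probe, A_73_113631, is described as DUSP14 in the array files but carries no symbol. It was lit on all 8 arrays and read 34.8, 32.7, 18.1 and 36.9 in CPE and 57.1, 51.8, 54.5 and 53.9 in CONTROL. It was not well above background on CPE array 2, and was tested only because each CONTROL array had it so. Its difference of -0.70 (SE 0.11), without overlap, thus had to be there to some degree and adds no support to the named probe.

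DUSP16, a phosphatase of JNK and p38, was not measured well either. A_73_P091336 was lit on all 8 arrays but well above background only on CPE array 1, and read 22.1, 12.01, 11.4 and 21.8 in CPE and 26.1, 30.0, 24.7 and 13.3 in CONTROL, with overlap. A_73_118238, which holds the letters GTGCACT, was lit and well above background on CPE array 2 only, at 42.0, and read 3.72 to 12.5 elsewhere. In all, 9 of the 17 probes, for 6 genes, could not be tested in either comparison, and none of them was well above background on any CONTROL array.

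**Figure D3:**
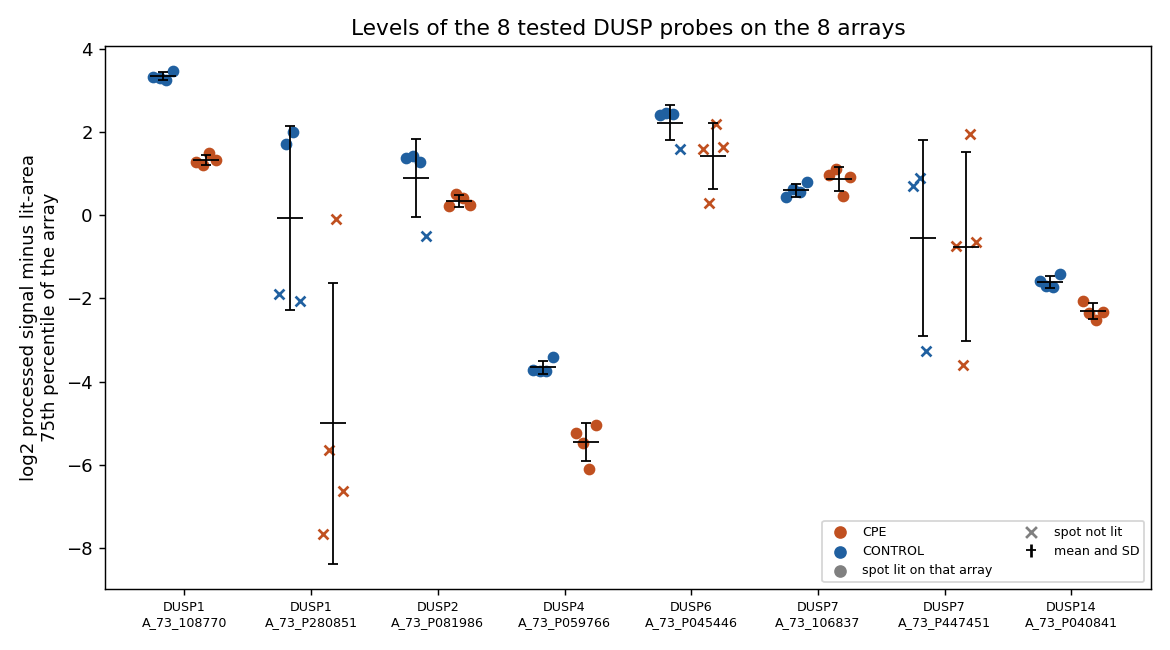
Levels of the 8 tested DUSP probes on the lit-area scale (log2 processed signal minus the array's 75th percentile over lit probes), 1 point per array by group, with dots for lit spots, crosses for spots that were not lit, and black bars for the group mean ± SD. The groups are apart for DUSP1 A_73_108770, DUSP4 and DUSP14, CONTROL array 4 stands low for DUSP2 and DUSP6, and the DUSP7 groups overlap.

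**Figure D4:**
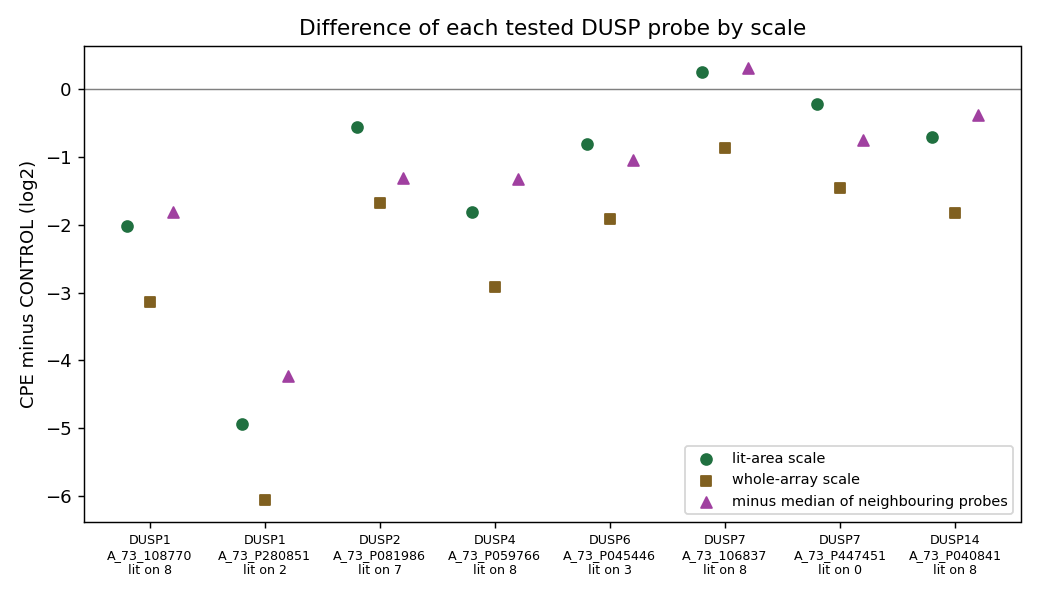
CPE minus CONTROL (log2) of the 8 tested DUSP probes on the whole-array scale, on the lit-area scale and against neighbouring probes. DUSP1 A_73_108770 lies between -3.14 and -1.81 on the 3 scales, whereas DUSP7 A_73_106837 lies at -0.86, 0.26 and 0.32.

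The order of the lit-area differences, DUSP1 lowest, then DUSP4, DUSP14 and DUSP7, has neighbours that do not all stand apart. DUSP1 and DUSP4 lie closer together than the SE of DUSP4, while DUSP14 and DUSP7 lie apart from their neighbours by more than their SEs. Leaving out each array in turn moved DUSP1 between -2.07 and -1.97, DUSP4 between -1.94 and -1.59, DUSP14 between -0.79 and -0.64 and DUSP7 between 0.18 and 0.40. The order also depends on how background is treated. With the normexp correction DUSP14 (-0.27) lay below DUSP4 (-0.15), so DUSP4 and DUSP14 changed places and DUSP4 no longer lay near DUSP1. DUSP1 stayed lowest and DUSP7 highest there.

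**Figure D5:**
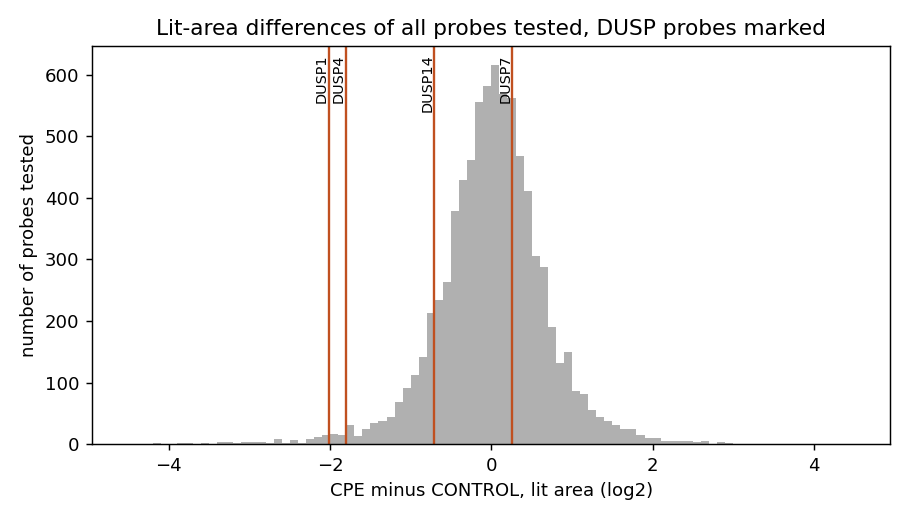
Number of lit probes tested by CPE minus CONTROL (log2), with lines at the 4 tested DUSP probes. The median of the 8000 probes is 0.028, DUSP1 and DUSP4 lie in the left tail, and DUSP7 lies right of the median.

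The named genes with lit-area patterns over the 8 arrays most like DUSP1 A_73_108770, by the root-mean-square distance of centred log2 levels among 7062 probes, were C3H1orf87 at a distance of 0.065, UBE2E1 at 0.12 and RXRA at 0.12. Their differences were -2.01, -2.01 and -1.80. The pattern used to pick them holds the gap between the groups, so differences near that of DUSP1 follow from the choice. UBE2E1 is a ubiquitin-conjugating enzyme and RXRA a nuclear receptor.

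Other genes of the pathway were counted from lists, each gene by its brightest probe. Beside each count stand the 8000 lit probes tested, 24% past the threshold higher in CPE and 24.1% lower. With so few genes tested per list, nothing is read from these counts. The lists were chosen with earlier results of these data known, and the genes named are the largest changes past the threshold. Their adjusted p-values therefore describe the fit and are no fresh test. They also rest on arrays of pooled RNA, with each group on its own slide. Of 23 other MAPK phosphatases 19 were on the array and 5 were tested in the lit area, of which 2 rose in CPE and none fell, with a median difference of 0.22 beside 0.028 over all probes. PTPN7, a tyrosine phosphatase of ERK and p38 in blood cells, rose by 0.60 (SE 0.18, limma adjusted p = 0.0267), and STYX, a catalytically inactive relative of the DUSPs, by 0.29 (SE 0.098, limma adjusted p = 0.0373). Neither passed under the normexp correction or without scaling between arrays. PTPN7 passed in 14 of the 20 lit-area settings that tested it and STYX in 8 of 20. On the whole-array scale PTPN7 was at -0.53 and STYX at -0.83, beside a median of -0.81 over all probes, and neither was past the threshold.

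Of 12 listed MAP kinases, not limited to substrates of these DUSPs, 6 were tested, of which 1 rose and 2 fell, with a median of -0.19. MAPK7 (ERK5) rose by 0.58 (SE 0.19, limma adjusted p = 0.0337). MAPK13, a p38 kinase, fell by 0.51 (SE 0.12, limma adjusted p = 0.00692), and MAPK15, an atypical ERK, fell by 0.59 (SE 0.11, limma adjusted p = 0.00308). MAPK7 passed in 12 of 19 lit-area settings, MAPK13 in 19 of 21 and MAPK15 in 20 of 21, and under normexp none of the 3 passed. On the whole-array scale, with a median of -0.81 over all probes, MAPK7 was at -0.54 and not past the threshold. There MAPK13 (-1.63) and MAPK15 (-1.72) were past it.

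Upstream, 7 of 17 genes for MAPK kinases and the steps above them were tested, of which 1 rose and 2 fell, with a median of -0.049. MAP2K6, which activates p38, rose by 0.54 (SE 0.097, limma adjusted p = 0.00221). MAP3K1, a kinase upstream of JNK, fell by 0.39 (SE 0.11, limma adjusted p = 0.0171). Without scaling between arrays none of the 7 passed, under normexp 1 rose and none fell, and with local centring 4 rose and 2 fell. On the whole-array scale, with a median of -0.81 over all probes, MAP2K6 was at -0.58 and not past the threshold, while MAP3K1 (-1.51) was past it.

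Early genes that depend on MAPK signalling, as several of the DUSPs do, went both ways, as did lit probes at large (24% higher, 24.1% lower). Of 26 listed genes 25 were on the array and 7 were tested, of which 2 rose and 3 fell, with a median of -0.34. FOS, the AP-1 subunit, fell by 2.64 (SE 0.082, limma adjusted p = 8.12e-07), and NR4A2, an inducible nuclear receptor, fell by 1.79 (SE 0.097, limma adjusted p = 5.43e-06). The other AP-1 gene FOSB rose by 0.67 (SE 0.11, limma adjusted p = 0.0017) and the early gene IER2 by 1.10 (SE 0.18, limma adjusted p = 0.00139). FOS, NR4A2 and IER2 passed in all 21 lit-area settings run and FOSB in 19 of 20. On the whole-array scale FOS (-3.76) and NR4A2 (-2.92) were also past the threshold. There IER2 (-0.022) and FOSB, read by another probe (1.58), were not past it.

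Markers of blood cell types were read beside the DUSPs, since in a bulk sample fewer cells of a type and less RNA per cell cannot be told apart. No array lacked a reading well above background for any of the 8 T cell markers. Of the 7 tested in the lit area 5 were higher in CPE and none lower, beside 24% and 24.1% of all lit probes tested. The same shares stand beside the counts of the other cell types. The summed linear level of the T cell markers on the lit-area scale was 51.1 to 80.5 on CPE arrays and 30.2 to 37.6 on CONTROL arrays. Of the neutrophil markers 4 of 10 were tested, 1 higher and 3 lower, and the sums, 103 to 116 and 99.4 to 110.0, overlapped. For monocytes 3 of 6 were tested, with 1 lower and sums of 19.7 to 21.6 in CPE and 25.7 to 28.5 in CONTROL, and 2 of the 6 were well above background on no array. For NK cells 3 of 5 were tested, 2 of them lower, with sums of 2.23 to 3.09 and 4.28 to 4.75. Under the normexp correction, and also without scaling between arrays, only 1 NK cell marker was lower and no neutrophil marker was higher. The same held with quantile normalization, no filter on dim probes, the replicate block and a lit limit of 1 log2 unit. It also held without CPE array 1, 2 or 4 and without CONTROL array 1, 2 or 3. With normexp 5 T cell markers were higher, and 1 monocyte and 2 neutrophil markers were lower. Without scaling these counts were 3, 0 and 3. None of the 4 B cell markers tested passed (sums 32.1 to 39.1 and 33.9 to 37.1), nor did the 1 red cell marker tested of 7 listed (102 to 164 and 99.1 to 123). The 1 platelet marker tested of 5 was higher (1.38 to 1.94 and 0.52 to 0.67). Some markers of T cells, neutrophils, monocytes, NK cells and platelets thus differed between the same groups as the DUSPs, and their part in the DUSP differences was not tested.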

How the data were processed

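The deposited scanner files hold spot intensity; the submitters' processing notes name Agilent Feature Extraction 10.10.1.1. Their processed signal is background-subtracted and, at its lowest, set to a floor shared by many spots. The deposited averages table gives, per group, the authors' mean on a log2 scale, used for gene symbols and to check the direction of differences. Control spots (1417) and outlier spots (12 to 73 on an array) were not used, and duplicate spots were averaged. Log2 processed signal was scaled to each array's 75th percentile over lit probes or all probes. The groups (n = 4 arrays) were set against each other in limma 3.58.1 (R 4.3.3), two-sided, Benjamini-Hochberg threshold 0.05, each probe apart, where either group had the probe well above background on each array; the fit was tested on simulated data. The number of arrays limits the precision.

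The DUSP genes, the gene lists, the lit rule and the tests were chosen with earlier results of these data known. Every DUSP probe is given. From each pathway list at most the 2 largest rises and 2 largest falls past the lit-area threshold, among probes lit and well above background on all 8 arrays, are named, and the 3 genes nearest to DUSP1. For 1 gene this rule selects, the result is not reported here. Alternatives were other scalings, background correction, filters, variance models, the replicate number as a block, other lit limits, local centring and leaving out each array. Normexp (offset 50) ran on median spot and background intensity, since no mean signal was used here. The replicate numbers do not pair the arrays: same-numbered arrays' deviations correlated at -0.096, -0.11, 0.23 and 0.38. No positions are printed, because the array design names another genome build than the reference annotation.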

Additional observations from a re-analysis of the deposited data

Results flagged for a closer look

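For DUSP2, DUSP4 and DUSP6 the lit-area level of the fourth CONTROL array stood apart from the other 3 CONTROL arrays. This was judged by Dixon's test of the gap to the nearest array against the range of the group. For DUSP2 A_73_P081986 its lit-area level was -0.51, with the others between 1.28 and 1.42. For DUSP6 A_73_P045446 it was 1.60, with the others between 2.43 and 2.46. For DUSP4 A_73_P059766 it was -3.41, with the others between -3.75 and -3.73, so here the array was the highest. Its unscaled DUSP4 reading, 54.7, lay within those of the other CONTROL arrays (53.7 to 57.7). The gap for DUSP4 thus comes with the lower lit-area scaling value of this array, 583 against 719 to 766. The spot was not lit on this array for DUSP2 and DUSP6, and was lit for DUSP4. These are 3 of the 15 groups of 4 arrays looked at, where chance marks about 1 in 20.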

How the results depend on the processing

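The lit-area count of called probes, 3855, was 1677 with normexp and 1458 without scaling. With normexp 1 of the 3 DUSP calls there was kept, that of DUSP1. The whole-array count, 5811, was 3130 with normexp and 3679 when only probes well above background on all 8 arrays were tested. Without scaling the 6 whole-array DUSP calls were 3, both DUSP1 probes and DUSP4. DUSP7 A_73_106837 turned from -0.86 to 0.088 without scaling and to 0.033 with scaling to bright probes, a shift that these scalings give every probe measured on all 8 arrays. Leaving out 1 array gave 3209 to 4399 calls in the lit area and 3761 (without CONTROL array 2) to 6877 over the whole array, and 3 to 4 and 5 to 6 DUSP calls. The split of whole-array calls moved with scaling: 2587 higher and 3224 lower became 3247 and 1145 without scaling, 3901 and 2364 with scaling to bright probes, and 209 and 3470 under the strict filter. It also turned without CONTROL array 2 (2206 and 1555), 3 (2255 and 1701) or 4 (2270 and 1759), without CPE array 1 (2492 and 2395), 2 (2536 and 1641) or 3 (3082 and 2824). In the lit area 1923 and 1932 became 426 and 1032 without scaling, and 1981 and 3598 with no filter. With the replicate block 3729 lit-area and 7030 whole-array probes were called, with no DUSP call changed; the pairing has no basis in the labels. Normexp on the mean signal was not run. Dim surroundings limit the 11 DUSP probes not lit on all 8 arrays.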

Other observations

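A probe described as DUSP16 but without a symbol, A_73_P123656, was lit and well above background on CPE arrays 1 and 3 only, at 73.7 and 139, and read 6.95 to 11.5 on the other 6 arrays.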
